A study of Mus musculus with 21 samples.

Results

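The DNA replication and G1/S genes described here are 45 protein-coding genes out of 55400 in the deposited table, listed by symbol because their products copy the genome or control entry into S phase. All 45 were found under their symbols and all 45 passed the filter on low counts in every fit. They were grouped by role into helicase loading (10 genes), helicase activation (7), polymerases and primase (8), clamp and maturation (9), nucleotide supply (4), G1/S control (4) and histone supply (3). The study asked how the H3K27 demethylase Kdm6b acts as mouse embryonic stem cells become motor neurons (MNs). RNA-seq of poly(A) RNA was made from wild-type C57BL/6 cells harvested untreated on 4 occasions (D4, D4H8, D5, D6). The D4H8, D5 and D6 harvests were also made after GSKJ4, an inhibitor given to block Kdm6b enzyme activity over the day before harvest. Each of the 7 groups had 3 libraries labelled as biological replicates. The study describes them as biologically independent experiments, and p-values measure the spread between them.

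The stem cells were kept on Mitomycin-C-treated mouse embryonic fibroblasts and then formed embryoid bodies. From D2 all groups received retinoic acid, which caudalizes the cells, and the Sonic Hedgehog agonist SAG, which ventralizes them. DAPT, an inhibitor of gamma-secretase and so of Notch signaling, was added from D4 on, so the time in DAPT and the stage cannot be told apart. At D5 the medium was changed to the basal ADFNK medium, whose stated recipe holds neither retinoic acid nor SAG, with DAPT, so the step from D5 to D6 and this change of medium cannot be told apart either. GSKJ4 was present from D3H8 to D4H8, from D4 to D5 or from D5 to D6, and its concentration is not given in the sources used here. The embryoid bodies were not sorted. In such bulk samples fewer cells in S phase and less RNA of a gene per cell cannot be told apart.

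Before a cell copies its DNA, each origin is licensed in G1: the origin recognition complex, Cdc6 and Cdt1 load the Mcm2-7 helicase as an inactive ring. At the G1/S transition cyclin E and the E2F transcription factors drive the program forward, the helicase is activated by Cdc45 and the GINS complex, and polymerases, clamp, clamp loader and nucleotide synthesis enzymes take up elongation. MN progenitors divide, whereas MNs are postmitotic, and transcripts of these genes are commonly used as markers of cycling cells.

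Many of these genes are textbook targets of E2F factors, so their promoters were read from RefSeq windows on GRCm38.p6 that run from 250 bases before to 50 after a gene's start. A window was given for 37 of the 45 genes. An E2F-like motif, searched as TTTCCCGC, TTTCGCGC, TTTGGCGC or TTTGCCGC on both strands, stood in the windows of 15 of these 37 genes, and in 34.9% of the 43 member windows against 2.26% of all 32851 windows. The letters CCAAT, on both strands, stood in 58.1% of member windows against 37.4% of all. TTTGAA, the letters of the cell cycle homology region, stood in 14.0% against 17.9%. A match describes letters and not a bound site. The 6 stretches shown are the 170 bases before the start, 5′ to 3′ on the gene's strand, with E2F-like letters in capitals. *Mcm5*, *Mcm6* and *Pola1* show how such letters are placed, and *Mcm2*, *Mcm10* and *Slbp* are shown as genes of the same program whose window held none.
*Mcm5* promoter, chr8:75109339-75109508, plus strand: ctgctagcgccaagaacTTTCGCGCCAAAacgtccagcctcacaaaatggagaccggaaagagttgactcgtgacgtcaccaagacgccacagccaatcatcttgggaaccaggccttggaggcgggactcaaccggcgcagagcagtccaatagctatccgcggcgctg
*Mcm6* promoter, chr1:128359706-128359875, minus strand: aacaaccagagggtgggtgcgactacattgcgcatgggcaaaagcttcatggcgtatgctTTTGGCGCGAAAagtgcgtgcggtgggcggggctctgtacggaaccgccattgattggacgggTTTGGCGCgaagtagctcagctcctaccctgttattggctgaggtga
*Pola1* promoter, chrX:93632156-93632325, minus strand: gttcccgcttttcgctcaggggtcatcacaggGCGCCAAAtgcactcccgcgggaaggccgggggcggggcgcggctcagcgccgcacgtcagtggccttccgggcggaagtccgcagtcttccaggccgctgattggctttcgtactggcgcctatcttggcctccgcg
*Mcm2* promoter, chr6:88898781-88898950, minus strand: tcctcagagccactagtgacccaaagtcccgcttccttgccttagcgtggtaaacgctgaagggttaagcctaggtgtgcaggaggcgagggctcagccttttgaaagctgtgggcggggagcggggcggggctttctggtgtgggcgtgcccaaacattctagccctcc
*Mcm10* promoter, chr2:5012792-5012961, minus strand: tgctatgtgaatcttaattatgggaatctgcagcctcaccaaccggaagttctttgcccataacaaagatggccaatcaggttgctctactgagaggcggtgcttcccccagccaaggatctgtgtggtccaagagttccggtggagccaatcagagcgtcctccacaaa
*Slbp* promoter, chr5:33652575-33652744, minus strand: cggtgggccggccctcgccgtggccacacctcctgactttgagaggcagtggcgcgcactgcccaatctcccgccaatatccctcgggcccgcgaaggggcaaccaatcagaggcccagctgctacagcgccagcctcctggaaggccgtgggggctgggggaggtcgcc
In *Mcm5* the capitals join a plus-strand and a minus-strand match that overlap, from 153 to 142 bases before the start. In *Mcm6* an overlapping pair lies from 110 to 99 bases before the start and a single match from 47 to 40 bases before it. In the change from D4 to D6 described next, the log2 fold change was -2.98 for *Mcm10*, -2.21 for *Mcm2* and -1.65 for *Slbp*, without these letters, and -2.69 for *Mcm5*, -2.67 for *Pola1* and -1.97 for *Mcm6*, with them. The values of these 2 sets overlap.

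The libraries held 14982115 to 34383842 counts in total, with a median of 16238435. The stage markers *Olig2* and *Isl1* moved in the order of the stages, and not every progenitor marker did. From D4 to D6, 5 of 8 MN progenitor markers fell and 2 rose, and all 8 MN markers rose. Of all tested genes 31.0% were lower and 32.9% higher in that comparison. *Olig2*, the MN progenitor factor, had a mean of 47.5 FPKM (read counts scaled to exon length and library total) at D4, 98.2 at D4H8, 22.4 at D5 and 1.24 at D6, and *Isl1*, a postmitotic MN factor, had 3.79, 28.5, 84.9 and 125. Markers of other cell types were detected, and are given in CPM (counts scaled to the library total after its adjustment by edgeR's TMM factor). Over the libraries 8 pluripotent markers summed to 26.4 to 311 CPM and 8 fibroblast markers to 81.7 to 246 CPM. The sums reached at most 55.3 for 8 interneuron markers and 112 for 8 glial markers. They reached at most 31.3 for 6 endothelial and blood markers and 141 for 5 endoderm and floor plate markers. The 8 pan-neuronal markers summed to 145 to 240 CPM at D4 and 14103 to 19243 at D6. Library D5+GSKJ4 replicate 2 stood apart, with 39381 genes at 0 against 29339 to 32805 in the others. Replicate 1 of D5 and of D6 is treated separately where the stages are compared.

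The mean share of counts in the 45 genes was lower at each later stage, and its largest drop came between D4H8 and D5. On the log2 scale the steps were less unlike. The median log2 fold change of the 45 genes was -0.24 for D4H8 against D4, -1.15 for the next step and -0.89 for the last. The steps differed in length, and rates of change were not compared. Together the 45 genes took 0.793% ± 0.0346 (SD, n = 3) of all counts at D4, 0.728% ± 0.0265 at D4H8, 0.318% ± 0.0575 at D5 and 0.158% ± 0.0521 at D6. The 3 libraries of D4 and of D4H8 all lay above those of D5, and those of D5 all lay above those of D6.

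**Figure D1:**
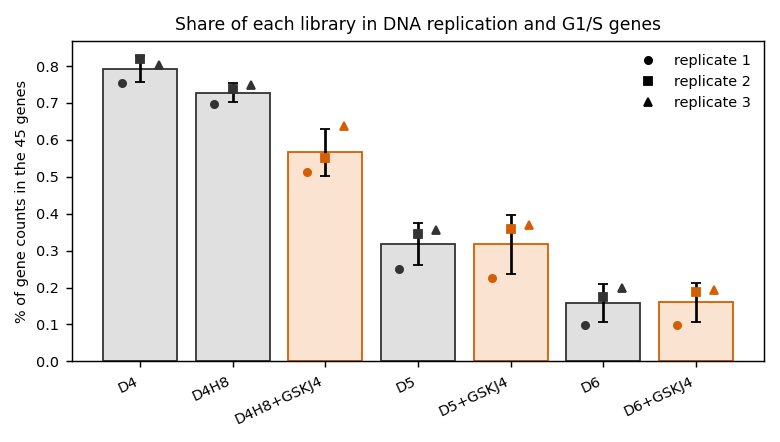
Share of each library's gene counts (y axis, percent) that fell in the 45 DNA replication and G1/S genes, by group (x axis). Bars and error bars are the mean and SD of 3 replicates, points are libraries with a symbol for each replicate number, and GSKJ4 groups are orange. The untreated groups step down from 0.793% at D4 to 0.158% at D6, the D4H8+GSKJ4 libraries (0.513% to 0.637%) lie below the D4H8 libraries (0.698% to 0.747%), and replicate 1 is the lowest library at D5 and D6 with or without GSKJ4.

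From D4 to D6, 45 of 45 genes fell (edgeR's quasi-likelihood test on counts with Benjamini-Hochberg adjustment over 17519 genes, adjusted p from 6.41e-08 to 3.16e-05), where 31.0% of all tested genes were lower. The median log2 fold change was -2.21, a 4.64-fold fall, against -0.04 over all tested genes, and values ran from -3.11 for *Gins2* to -1.32 for *Rfc2*. *Gins2*, a subunit of the GINS complex that completes the active helicase, had 21.9, 21.25 and 20.2 FPKM at D4 and 0.84, 3.07 and 3.21 at D6, an 8.65-fold fall. *Gins2* shares 2758 exonic bases with *Gse1* on the other strand, and as the counting strand was not stated its counts are uncertain. *Clspn*, a mediator of the replication checkpoint, fell by 3.01 ± 0.32 (SE) on the log2 scale, *Mcm10*, which joins helicase activation to polymerase alpha, by 2.98 ± 0.27, and *Rrm2*, the regulated subunit of ribonucleotide reductase, by 2.91 ± 0.26.

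*Rfc2*, a clamp loader subunit, fell least and still fell 2.49-fold, from 21.1, 24.3 and 21.3 FPKM at D4 to 6.74, 9.16 and 9.79 at D6. *Gins4* fell 2.77-fold and *Orc6*, the smallest subunit of the origin recognition complex, 3.08-fold. Between these ends the roles overlapped. The median log2 fold change was -2.63 for helicase activation, -2.50 for helicase loading, -2.49 for nucleotide supply, -2.24 for polymerases and primase, -2.24 for histone supply, -2.13 for clamp and maturation and -1.94 for G1/S control.

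From D4 to D4H8 no member passed the test in either direction, where 4.06% of tested genes were higher and 0.32% lower. At an unadjusted p under 0.05, edgeR had 2 members higher (*E2f1* and *E2f2*) and 4 lower (*Gins1*, *Orc1*, *Orc6* and *Pola1*). Of all 17519 tested genes, 1902 were higher and 992 lower at that p. DESeq2 called 2 members higher at its adjusted threshold, where it called 997 of all tested genes higher. Most values were small and negative: 40 of 45 members had a log2 fold change below 0, with a median of -0.24 against -0.02 over all tested genes. In normalized CPM 19 members had all D4H8 libraries below all D4 libraries, where 9.97% of tested genes did. The lowest value was that of *Orc1*, the large ATPase of the origin recognition complex, at -0.54 ± 0.25 (SE), with 14.25, 18.4 and 17.5 FPKM at D4 and 9.56, 13.1 and 13.0 at D4H8. Its groups did not overlap, yet its adjusted p was 0.29 in the edgeR test.

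*E2f1*, *E2f2* and *Rrm2* stood on the other side. They were the only members with all D4H8 libraries above all D4 libraries, where 15.2% of tested genes were so placed. *E2f1*, an activator of S phase genes, had 11.9, 13.1 and 16.1 FPKM at D4 and 21.7, 21.3 and 22.8 at D4H8, with a log2 fold change of 0.64 ± 0.19 (SE). Its adjusted p was 0.079 with edgeR's quasi-likelihood test and 0.015 with DESeq2. *E2f2*, a second activator E2F, had 3.24, 4.05 and 3.58 FPKM at D4 and 5.94, 5.24 and 4.76 at D4H8, a difference of 0.51 ± 0.16, with adjusted p of 0.095 with edgeR and 0.025 with DESeq2.

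*Rrm2* had 122, 152 and 157 FPKM at D4 and 209, 189 and 195 at D4H8, a difference of 0.42 ± 0.24 on the log2 scale whose adjusted p was 0.40 with edgeR and 0.34 with DESeq2. The 3 genes were thus at their highest group mean at D4H8, at 160% (*E2f1*), 147% (*E2f2*) and 138% (*Rrm2*) of their D4 mean FPKM. *Cdt1*, *Pold1*, *Pole* and *Mcm2* were close to their D4 means, at 103%, 105%, 100% and 100%, and the other 38 members lay between 71.2% (*Orc1*) and 99.9% (*Lig1*). *Cdt1*, the licensing factor that loads Mcm2-7, varied most within D4 relative to its mean, from 21.8 to 48.5 FPKM.

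From D4H8 to D5, 44 of 45 members fell, where 10.5% of tested genes were lower. The median log2 fold change was -1.15, a 2.22-fold fall, against 0.01 over all tested genes. The exception was *Gins4*, at -0.43 ± 0.16 with an edgeR adjusted p of 0.058. *Rrm2* fell most, by 1.72 ± 0.24, from its D4H8 values to 42.8, 67.2 and 70.1 FPKM at D5. *Mcm10* fell by 1.62 ± 0.25, *Clspn* by 1.55 ± 0.30, and *Mcm5*, a helicase subunit, by 1.52 ± 0.34. The smallest falls after *Gins4* were those of *Orc6* (0.66 ± 0.14), *Rfc2* (0.76 ± 0.14) and *Slbp* (0.84 ± 0.14), the stem-loop binding protein of histone mRNA.

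From D5 to D6, 42 of 45 members fell, where 15.1% of tested genes were lower, with a median log2 fold change of -0.89 against -0.02 over all tested genes. *Rrm2* again fell most (by 1.60 ± 0.24), followed by *Clspn* (1.37 ± 0.31) and *Prim1*, the catalytic subunit of primase (1.35 ± 0.26). *Mcm5* (-0.91 ± 0.34, adjusted p = 0.052), *Rfc2* (-0.34 ± 0.14, adjusted p = 0.080) and *Ccne2* (-0.42 ± 0.26, adjusted p = 0.23), which encodes a cyclin E, did not pass edgeR's quasi-likelihood test. Leaving out D5 replicate 3 took the count from 42 to 30, the lowest of any left-out library.

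The members of each role are described next, by their level per length in the untreated libraries in the order of the replicate numbers. Among the 10 helicase loading genes the log2 fold change from D4 to D6 ran from -2.76 to -1.62. For *Cdc6*, the ATPase that brings the helicase to the origin, the values were 21.2, 24.03 and 20.75 FPKM at D4, 14.9, 19.2 and 18.7 at D4H8, 4.66, 7.39 and 6.56 at D5 and 1.29, 4.01 and 4.12 at D6. *Cdt1*, its partner in loading, had 21.75, 30.9 and 48.5 FPKM at D4, 32.3, 31.6 and 40.1 at D4H8, 19.1, 16.3 and 22.1 at D5 and 6.22, 8.10 and 11.6 at D6. The *Cdc6* libraries of D5 lay below all of D4 and D4H8 and above all of D6, while the *Cdt1* libraries of D5 and D4 overlapped, with 22.1 FPKM in D5 replicate 3 and 21.75 in D4 replicate 1. For *Mcm2*, a helicase subunit, the values were 58.7, 70.8 and 73.5 FPKM at D4, 65.9, 67.6 and 69.97 at D4H8, 24.2, 32.4 and 41.1 at D5 and 8.08, 15.9 and 18.04 at D6. *Mcm5*, a helicase subunit, had 102.2, 109 and 124 FPKM at D4, 84.9, 96.3 and 107 at D4H8, 21.7, 35.25 and 43.95 at D5 and 6.29, 19.4 and 24.5 at D6. For *Mcm6*, a helicase subunit, the values were 76.6, 91.4 and 106 FPKM at D4, 67.3, 75.05 and 84.96 at D4H8, 34.04, 45.3 and 46.2 at D5 and 12.7, 25.3 and 29.3 at D6. All of these helicase genes had each D4H8 library above each D5 library.

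Among the 7 helicase activation genes the log2 fold change ran from -3.11 to -1.47. *Cdc45*, which rides with Mcm2-7 in the active helicase, had 19.8, 24.7 and 20.45 FPKM at D4, 18.3, 23.35 and 21.8 at D4H8, 5.18, 8.72 and 8.61 at D5 and 1.43, 4.64 and 4.07 at D6. Its D4 and D4H8 libraries overlapped and lay well above those of D5 and D6. Its gene shares 209 exonic bases with *Ufd1* on the other strand. For *Gins4*, a GINS subunit, the values were 51.9, 50.6 and 48.7 FPKM at D4, 39.7, 47.02 and 42.35 at D4H8, 34.9, 28.4 and 32.2 at D5 and 12.6, 20.1 and 19.95 at D6. Unlike *Cdc45*, *Gins4* had D5 libraries close to those of D4H8, at most 34.9 against at least 39.7 FPKM.

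The 8 polymerase and primase genes ran from -2.89 to -1.76. *Pola1*, the catalytic subunit of polymerase alpha, had 16.5, 16.3 and 14.3 FPKM at D4, 11.2, 13.75 and 11.9 at D4H8, 4.49, 6.12 and 5.30 at D5 and 1.5, 2.80 and 2.88 at D6. For *Pole*, the catalytic subunit of the leading strand polymerase epsilon, the values were 11.2, 14.8 and 15.1 FPKM at D4, 12.9, 14.3 and 13.96 at D4H8, 3.72, 5.29 and 5.61 at D5 and 1.37, 2.62 and 3.15 at D6. Their D6 libraries were all below their D5 libraries. The 9 clamp and maturation genes ran from -2.64 to -1.32. *Rpa2*, a subunit of the single-strand binding protein RPA, had 40.99, 45.8 and 40.3 FPKM at D4, 31.2, 36.1 and 34.9 at D4H8, 13.1, 17.8 and 15.1 at D5 and 4.09, 8.94 and 10.1 at D6. For *Pcna*, the sliding clamp, the values were 247, 217 and 176 FPKM at D4, 183, 174 and 171 at D4H8, 48.98, 86.9 and 74.03 at D5 and 22.9, 35.3 and 41.4 at D6. Both had their D6 libraries below those of every earlier stage.

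The 4 nucleotide supply genes ran from -2.91 for *Rrm2* to -1.92, and the 4 G1/S control genes from -2.20 to -1.78. *Ccne1*, which encodes cyclin E1, had 39.8, 46.8 and 47.3 FPKM at D4, 33.5, 38.4 and 38.5 at D4H8, 14.3, 21.4 and 22.3 at D5 and 5.59, 9.79 and 12.65 at D6. For *Ccne2*, which encodes cyclin E2, the values were 17.3, 13.1 and 12.9 FPKM at D4, 10.6, 10.6 and 11.99 at D4H8, 3.58, 8.03 and 5.75 at D5 and 3.17, 3.63 and 5.22 at D6. The *Ccne2* libraries of D5 and D6 overlapped, and those of *Ccne1* did not. *Ccne2* shares 609 exonic bases with *Ints8* on the other strand, so its counts are uncertain. *E2f1*, the activator E2F, had 11.9, 13.1 and 16.1 FPKM at D4, 21.7, 21.3 and 22.8 at D4H8, 8.98, 10.2 and 11.8 at D5 and 2.31, 4.32 and 4.79 at D6. The 3 histone supply genes ran from -2.34 to -1.65. For *Slbp*, the histone mRNA binding protein, the values were 29.05, 31.6 and 25.1 FPKM at D4, 23.6, 25.7 and 25.9 at D4H8, 13.1, 14.6 and 14.3 at D5 and 6.67, 9.69 and 10.05 at D6. *Chaf1a*, the large subunit of the chromatin assembly factor that places histones behind the fork, had 14.04, 14.8 and 15.9 FPKM at D4, 13.35, 15.96 and 15.3 at D4H8, 4.84, 6.58 and 7.70 at D5 and 1.74, 3.35 and 4.06 at D6. *Chaf1a* shares 4648 exonic bases with *Ubxn6* on the other strand, the longest such overlap of any member, and its counts are uncertain. Strand overlaps of 64 to 2758 exonic bases with another gene also touched *Cdc45*, *Fen1*, *Gins2*, *Lig1*, *Mcm7*, *Orc1*, *Orc6*, *Pole*, *Rfc2*, *Rfc4*, *Rfc5*, *Slbp* and *Tk1*.

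Taken as a share of the fall in mean FPKM from D4 to D6, the median member had gone 16.2% of the way at D4H8 and 76.1% of the way at D5. *Tk1*, the thymidine salvage kinase, and *Orc1* were furthest along at D5, at 85.6% and 85.5%. *E2f1* was the least far along, at 34.2%, and was the only member above 60% of its D4 level at D5 apart from *Gins4*, at 75.3% and 63.1%. *Gins4* had gone 56.6% and *Cdt1* 58.0% of the way.

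**Figure D2:**
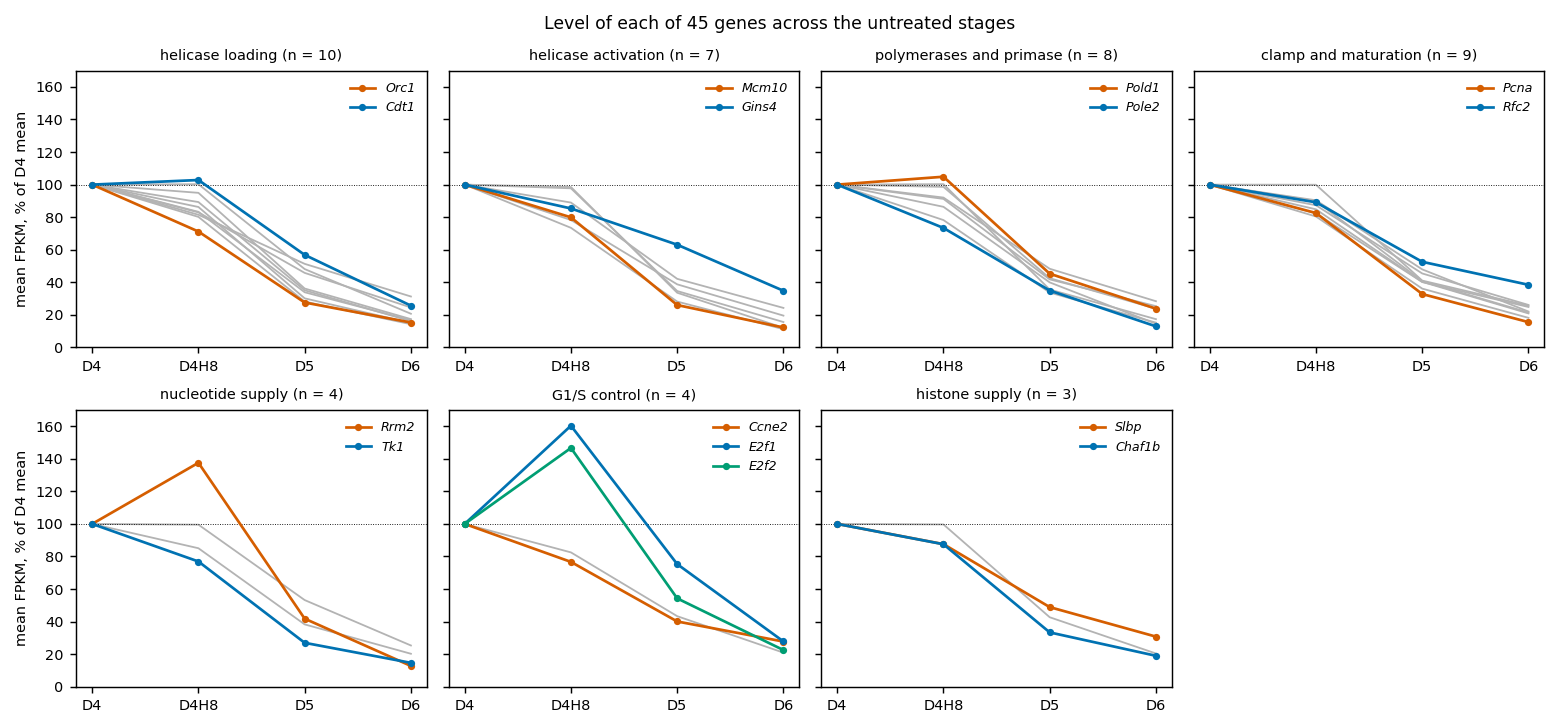
Mean FPKM of each of the 45 genes at the untreated stages D4, D4H8, D5 and D6 (x axis) as a percent of its D4 mean (y axis), with a panel for each role, each line the mean of 3 replicates, selected genes in color and the others gray. *E2f1*, *E2f2* and *Rrm2* peak at D4H8 at 138% to 160%, the other lines are near or below 100% there, and all end between 11.2% and 38.5% at D6.

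Within the helicase, the 6 Mcm2-7 subunits stayed close to each other per length. *Mcm7* was the highest at each untreated stage and *Mcm2* the lowest, with means of 161 and 67.7 FPKM at D4 and 26.9 and 14.0 FPKM at D6, ratios of 2.38 and 1.92. The GINS subunits were further apart, from 9.80 (*Gins3*) to 50.4 FPKM (*Gins4*) at D4, and the ratio of the highest to the lowest was 5.14 at D4 and 7.39 at D6, with *Gins4* the highest at both. Over all 45 genes *Pcna*, the sliding clamp, had the highest D4 level, at 213 ± 35.7 FPKM (SD, n = 3), and *E2f2* the lowest, at 3.62 ± 0.407. *Pcna* and *Mcm7* (161 ± 18.3) were next to each other in that order and their D4 libraries did not overlap, from 176 to 247 and from 140 to 172 FPKM.

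Replicate 1 had the lowest FPKM for 41 of 45 members within D5 and for 44 of 45 within D6. It was also lowest for 31 members within D4H8 and for 24 within D4. With GSKJ4 it was lowest for 24 members at D4H8, 42 at D5 and 45 at D6. At D6 the members took 0.099% of the counts in replicate 1, 0.175% in replicate 2 and 0.199% in replicate 3. *Mcm5* had 6.29, 19.4 and 24.5 FPKM in these libraries and *Cdc6*, the licensing ATPase, 1.29, 4.01 and 4.12. The summed pluripotent markers were also lowest in replicate 1 at D6 (30.03, 179 and 167 CPM) and at D5 (54.3, 172 and 158 CPM), and the summed pan-neuronal markers were highest there (19243, 14606 and 14103 CPM at D6). The pluripotent sums were lowest in replicate 1 at D4 (132, 311 and 276 CPM), at D4H8 (63.3, 266 and 204 CPM) and in every GSKJ4 group as well. The pan-neuronal sums were highest in replicate 1 at D4H8 (1534, 1000 and 742 CPM) but lowest in it at D4 (145, 240 and 151 CPM). The part of these markers in the spread of the 45 genes was not tested. Without D6 replicate 1, all 45 members still fell from D4 to D6, and 32 fell from D5 to D6 with a median log2 fold change of -0.63. Without D5 replicate 1, 45 were lower at D5 than at D4H8, and 45 were lower at D6 than at D5.

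At D4H8, 4 members were lower with GSKJ4 at an adjusted p under 0.05, *Rrm2*, *E2f2*, *Pcna* and *Rfc3*, and none was higher, where 1.85% of the 16269 tested genes were lower and 2.11% higher. Most members had values on the same side: 40 of 45 members had a log2 fold change below 0, with a median of -0.36 against 0.02 over all tested genes, and 20 were lower at an unadjusted p under 0.05, where 11.0% of tested genes were. All treated libraries lay below all untreated libraries in CPM for 24 members, where 16.8% of tested genes were so placed, and above them for *Rfc5* alone, where 16.9% were. The members' share of counts was 0.567% ± 0.0636 (SD, n = 3) with GSKJ4 and 0.728% ± 0.0265 without.

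*Rrm2* (chr12:24708241-24714146) had 209, 189 and 195 FPKM without GSKJ4 and 91.3, 71.2 and 97.4 with it. Every treated library was below every untreated one and also below the 3 D4 libraries (122 to 157 FPKM). The log2 fold change was -1.24 ± 0.17 (SE), a 2.35-fold fall, and edgeR's test gave an adjusted p of 0.013.

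*E2f2* (chr4:136172394-136196057) had 5.94, 5.24 and 4.76 FPKM without GSKJ4 and 2.97, 1.39 and 2.74 with it, again with no overlap. Its log2 fold change was -1.23 ± 0.28 and its adjusted p 0.044 by edgeR. *E2f1* had 21.7, 21.3 and 22.8 FPKM without and 13.7, 6.72 and 14.8 with GSKJ4. The *E2f1* groups did not overlap either, and at -0.96 ± 0.25 its adjusted p was 0.061 by edgeR and 0.0078 by DESeq2. The lowest value of both genes came from replicate 2, the treated library with the largest mitochondrial share of counts (5.33%, against 2.00% and 2.27%). Without it the *E2f1* difference was -0.72 with an adjusted p of 0.018.

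*Pcna* (chr2:132249162-132253314) had 183, 174 and 171 FPKM without and 83.8, 79.4 and 121 with GSKJ4, a log2 fold change of -0.94 ± 0.19 (adjusted p = 0.033 by edgeR). *Rfc3* (chr5:151642756-151651242), a subunit of the loader that places Pcna on DNA, had 22.2, 21.8 and 20.0 FPKM without and 11.2, 10.0 and 16.1 with GSKJ4, at -0.83 ± 0.19 with an adjusted p of 0.049. *Mcm7* missed the threshold narrowly, at -0.72 ± 0.17 with an adjusted p of 0.0503, and its groups did not overlap (139, 139 and 124 FPKM without, 76.9, 79.6 and 93.8 with).

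*Mcm7* stayed the highest helicase subunit per length, with a mean 1.98 times that of the lowest, *Mcm2*, without GSKJ4 and 1.48 times with it. *Mcm2* was at -0.31 ± 0.16, *Mcm5* at -0.37 ± 0.19 and *Mcm6* at -0.07 ± 0.20. *Tk1* (-0.76 ± 0.21) and *Slbp* (-0.58 ± 0.18) did not pass the edgeR test.

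The 5 members with values above 0 were *Rfc5* (0.34 ± 0.17), *Rpa1* (0.29 ± 0.20), *Orc1* (0.19 ± 0.23), *Pole* (0.13 ± 0.24) and *Cdt1* (0.09 ± 0.27), and none passed the test. *Rfc5*, another clamp loader subunit, had 17.3, 19.0 and 20.0 FPKM without and 22.2, 25.1 and 25.3 with GSKJ4, so its treated libraries all lay above its untreated ones while those of *Rfc3* all lay below. *Rfc5* shares 499 exonic bases with *Wsb2* on the other strand, and its counts are uncertain for that reason. Cyclin E transcripts were near their untreated values, at -0.06 ± 0.18 for *Ccne1* and -0.15 ± 0.25 for *Ccne2*.

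The count of 4 depended on single libraries. Leaving out any of the D4H8 libraries (replicate 1, 2 or 3) left 0 members called, leaving out D4H8+GSKJ4 replicate 1 left 2, and leaving out D4H8+GSKJ4 replicate 2 gave 12. With the replicate number as a block 7 were called, and by DESeq2 10. The number of all tested genes that were lower moved as well. It was 301 in the edgeR fit of all 6 libraries, 1039 with the block and 965 by DESeq2. It was 41 to 47 without an untreated library, 348 without D4H8+GSKJ4 replicate 1 and 748 without D4H8+GSKJ4 replicate 2. Under the same omissions the log2 fold change of *Rrm2* ran from -1.29 to -1.16 over the left-out libraries and the median of the 45 from -0.41 to -0.27.

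In the same libraries 5 of 8 MN progenitor markers were lower with GSKJ4, where 1.85% of all tested genes were. Their median log2 fold change was -2.21, against 0.02 over all tested genes. Their summed level ran from 770 to 1197 CPM without and from 208.5 to 439 CPM with GSKJ4, and *Olig2* had 98.2 ± 22.8 FPKM (SD, n = 3) without and 6.93 ± 4.59 with it. Of 8 MN markers, 7 were tested and 3 were lower. The summed fibroblast markers ran from 101.7 to 147 CPM without and 153 to 246 CPM with GSKJ4, and none of 7 tested passed. The part of these markers in the result was not tested.

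**Figure D3:**
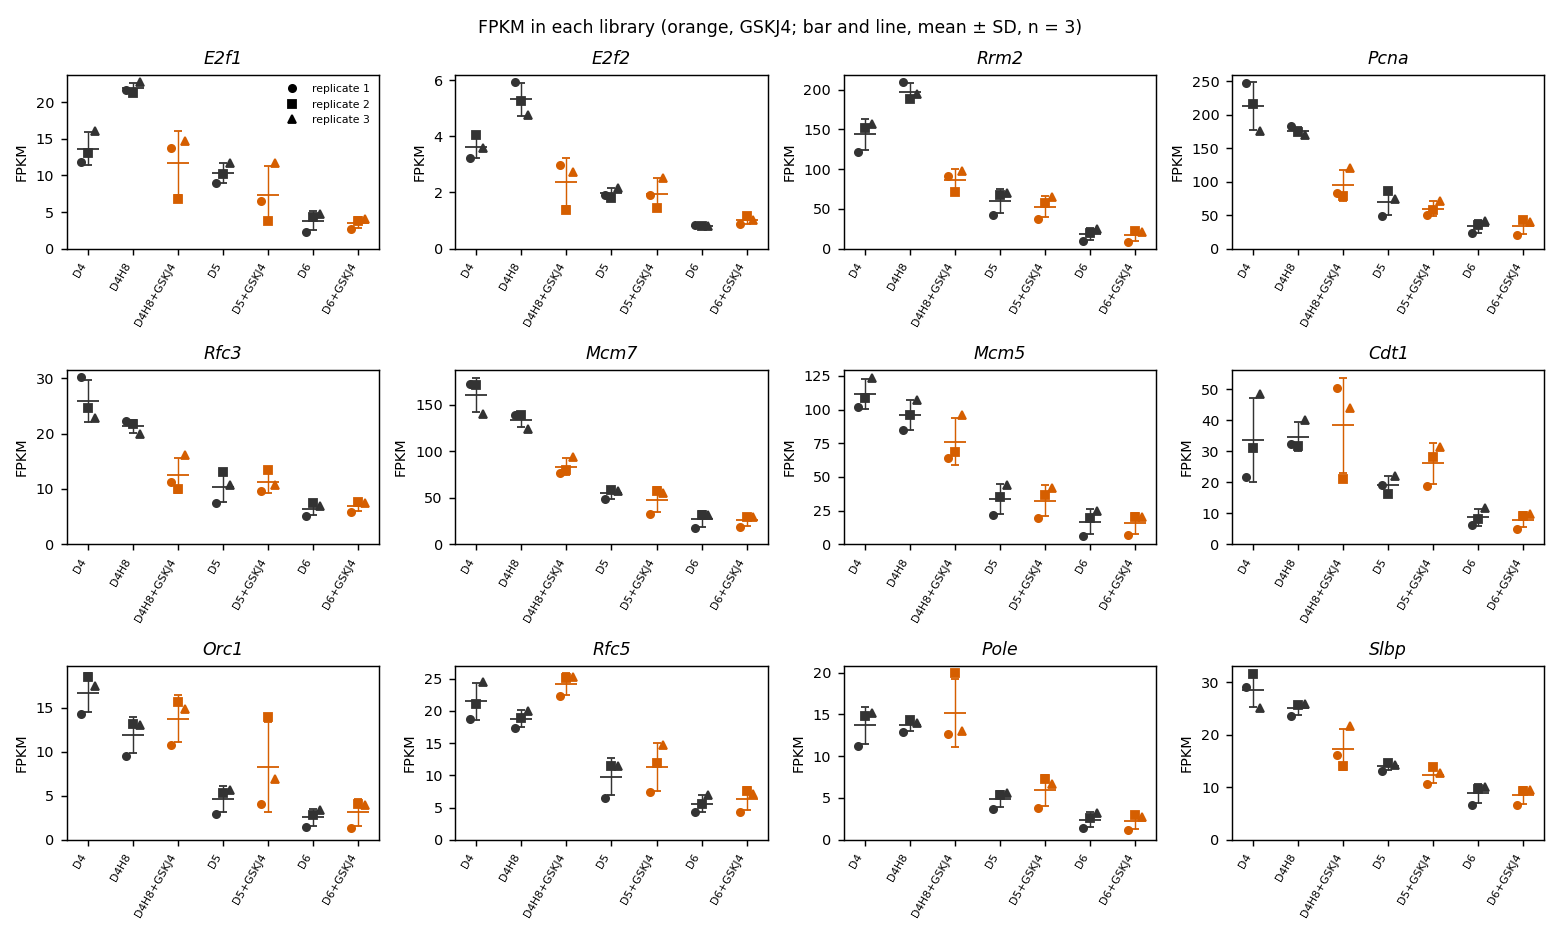
FPKM (y axis, from 0) of 12 genes in each of the 21 libraries, by group (x axis), with a symbol for each replicate number, lines and whiskers for the mean and SD of 3 replicates, and GSKJ4 groups in orange. For *E2f1*, *E2f2* and *Rrm2* the D4H8 libraries lie above both the D4 and the D4H8+GSKJ4 libraries. The same D4H8 libraries enter both comparisons, which are therefore not independent. *Rfc5* is higher in all D4H8+GSKJ4 libraries than in the D4H8 libraries, and all genes are low at D6.

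At D5 no member passed the test, where 0.00613% of 16309 tested genes were higher and 0.0% lower. No member had an unadjusted p under 0.05 by edgeR, and DESeq2 called none. Of all tested genes 377 were higher and 390 lower at that p, and DESeq2 called 31 higher and 43 lower. The median log2 fold change of the members was -0.00, with 24 members below 0 and 21 above. Values ran from -0.54 ± 0.34 (*E2f1*) to 0.79 ± 0.41 (*Orc1*). *Orc1* had 2.89, 5.32 and 5.63 FPKM without and 4.04, 13.95 and 6.91 with GSKJ4, its highest value coming from D5+GSKJ4 replicate 2, the library that stood apart. Without that library the members' median was -0.13, and over all left-out libraries it ran from -0.16 (without D5 replicate 1) to 0.16 (without D5+GSKJ4 replicate 1, which left 4 members higher at an unadjusted p under 0.05). Without D5+GSKJ4 replicate 1, 781 of 16799 tested genes were higher at that p. *Rrm1* and *Slbp* were the members with all treated libraries below all untreated ones, 2 of 45, where 6.38% of tested genes were. *Slbp* had 13.1, 14.6 and 14.3 FPKM without and 10.6, 13.8 and 12.7 with GSKJ4, which overlap in FPKM though not in CPM.

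At D6 no member passed the test, where 0.0% of 16301 tested genes were higher and 0.0% lower, and none had an unadjusted p under 0.05 by edgeR or was called by DESeq2. Of all tested genes 88 were higher and 134 lower at that p, and DESeq2 called 0 higher and 1 lower. The median log2 fold change of the members was 0.03 and values ran from -0.13 (*Cdc45*) to 0.32 (*E2f2*), with standard errors from 0.16 to 0.56. Compared within replicate numbers, the members' share of counts was 0.099% and 0.0995% in replicate 1, 0.175% and 0.188% in replicate 2, and 0.199% and 0.193% in replicate 3, without and with GSKJ4. With the replicate number as a block 0 members were called, where 48 of the 16301 tested genes were higher and 209 lower. Leaving out D6 replicate 1 moved the median to -0.20 and leaving out D6+GSKJ4 replicate 1 moved it to 0.27.

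*E2f2* was the member with all treated libraries above all untreated ones at D6, where 2.73% of tested genes were so placed, at 0.83, 0.81 and 0.81 FPKM without and 0.88, 1.17 and 1.03 with GSKJ4, from 62 to 66 and from 70 to 86 reads. The difference was 0.32 ± 0.21 on the log2 scale, with an edgeR adjusted p of 1.00.

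The levels with GSKJ4 by library, in the order of the replicate numbers, show how far single genes followed the median. *Cdc6* had 12.9, 15.8 and 15.99 FPKM at D4H8, 4.17, 6.17 and 7.32 at D5 and 1.10, 4.45 and 3.67 at D6. *Cdt1* had 50.3, 20.9 and 43.8 FPKM at D4H8, 18.75, 28.2 and 31.2 at D5 and 5.02, 9.09 and 9.74 at D6. *Orc1* had 10.7, 15.7 and 14.8 FPKM at D4H8, 4.04, 13.95 and 6.91 at D5 and 1.36, 4.00 and 3.93 at D6. The treated *Cdt1* libraries of D4H8 were the furthest apart of these, from 20.9 to 50.3 FPKM. *Mcm2* had 53.98, 49.6 and 65.4 FPKM at D4H8, 23.8, 34.7 and 42.5 at D5 and 8.32, 15.5 and 19.3 at D6. *Mcm5* had 63.9, 68.7 and 96.01 FPKM at D4H8, 19.7, 36.2 and 41.4 at D5 and 6.65, 20.35 and 20.1 at D6. *Mcm6* had 62.35, 82.3 and 74.7 FPKM at D4H8, 27.2, 50.4 and 45.9 at D5 and 13.8, 25.8 and 28.95 at D6. Replicate 1 held the lowest treated value of all 3 helicase genes at each stage except *Mcm2* at D4H8. *Cdc45* had 13.5, 16.1 and 17.1 FPKM at D4H8, 6.28, 10.3 and 9.57 at D5 and 1.21, 4.67 and 3.42 at D6. *Gins2* had 9.67, 7.0 and 14.5 FPKM at D4H8, 3.32, 5.49 and 7.34 at D5 and 1.44, 3.35 and 4.10 at D6. *Pola1* had 8.53, 17.5 and 10.7 FPKM at D4H8, 4.53, 7.88 and 5.59 at D5 and 1.43, 3.48 and 2.98 at D6. In *Pola1* and *Pole* replicate 2 had the highest treated value at D4H8. *Pole* had 12.6, 19.9 and 13.00 FPKM at D4H8, 3.76, 7.26 and 6.70 at D5 and 1.14, 2.92 and 2.76 at D6. *Ccne1* had 32.01, 31.7 and 45.35 FPKM at D4H8, 10.8, 23.3 and 23.1 at D5 and 5.18, 11.8 and 11.7 at D6. *Ccne2* had 7.82, 13.2 and 9.10 FPKM at D4H8, 5.81, 6.14 and 5.36 at D5 and 2.77, 5.04 and 5.10 at D6. Neither cyclin E gene had all treated libraries on 1 side of the untreated ones at any stage. *Rpa2* had 23.9, 21.2 and 32.1 FPKM at D4H8, 9.62, 15.7 and 17.3 at D5 and 3.56, 9.85 and 11.3 at D6. *Chaf1a* had 14.2, 11.1 and 14.9 FPKM at D4H8, 4.13, 8.09 and 8.05 at D5 and 1.69, 3.84 and 4.06 at D6. *Pcna* had 83.8, 79.4 and 121 FPKM at D4H8, 49.9, 58.1 and 71.3 at D5 and 20.7, 42.5 and 40.04 at D6. The *Pcna* libraries of D5 and D6 overlapped the untreated ones, unlike those of D4H8. *Rrm2* had 91.3, 71.2 and 97.35 FPKM at D4H8, 37.7, 56.9 and 64.4 at D5 and 8.87, 22.04 and 20.4 at D6. *E2f1* had 13.7, 6.72 and 14.8 FPKM at D4H8, 6.49, 3.82 and 11.65 at D5 and 2.73, 3.84 and 4.11 at D6. The *Rpa2* libraries with GSKJ4 at D4H8 overlapped the untreated ones in FPKM (31.2 to 36.1) and not in CPM, whereas *Rrm2* and *E2f1* at D4H8 did not overlap on either scale.

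Whether the GSKJ4 effect itself differed between stages was tested as an interaction over 18 libraries and 18103 genes. No member passed for D5 against D4H8, where 0.232% of genes were higher, nor for D6 against D4H8, where 0.552% were. At an unadjusted p under 0.05 edgeR had 3 members higher for D5 and 7 for D6, and 41 of 45 values were above 0 in each. Of all 18103 genes 905 were higher for D5 and 1294 for D6 at that p. With the replicate number as a block, 1 member (*Rrm2*) passed for D5, where 1.26% of genes were higher, and 5 (*E2f2*, *Gins2*, *Pcna*, *Rfc3* and *Rrm2*) passed for D6, where 2.87% were. Without the block *E2f2* came closest, at 1.56 ± 0.37 for D6 (adjusted p = 0.064 by edgeR, 0.0045 by DESeq2). *Rrm2* was at 1.14 ± 0.42 for D6 and 1.00 ± 0.41 for D5, with adjusted p of 0.23 and 0.41. The D4H8 libraries enter both comparisons.

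**Figure D4:**
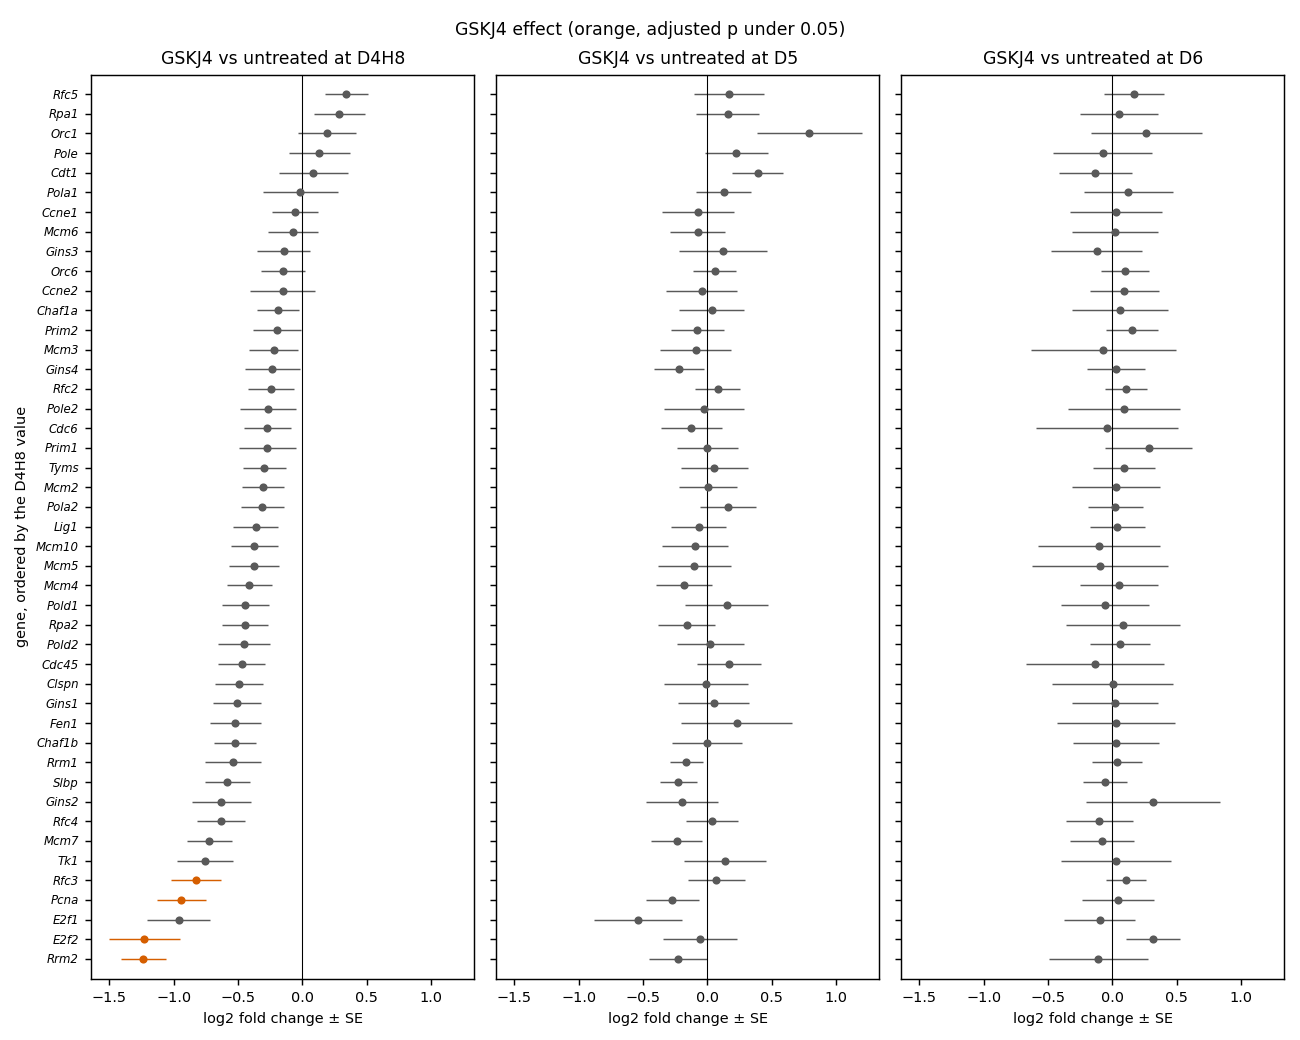
Log2 fold change with GSKJ4 against untreated (x axis, points with SE from edgeR) for each of the 45 genes (y axis, ordered by the D4H8 value) at D4H8, D5 and D6. Orange points passed an adjusted p of 0.05. At D4H8 40 points lie below 0 and the 4 orange genes lie between -1.24 and -0.83, while at D5 and D6 the points lie around 0.

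The rest of the cell cycle program was read from lists of genes that are not members. Of 51 other replication and G1/S genes 46 fell and 2 rose from D4 to D6, where 31.0% of all tested genes were lower and 32.9% higher, with a median log2 fold change of -1.82 against -0.04 over all tested genes. The 2 that rose were *Rb1* (1.47 ± 0.15), the pocket protein that restrains E2F, and its relative *Rbl2* (1.28 ± 0.21). From D4 to D4H8, 2 of the 51 rose, where 4.06% of tested genes were higher, and none fell: *Rb1* (0.84 ± 0.15) and *Tfdp2* (0.57 ± 0.15), an E2F dimer partner. With GSKJ4 at D4H8 none of the list rose, where 2.11% of all tested genes were higher and 1.85% lower. *Nasp*, a histone chaperone, was among those that fell, by 0.81 ± 0.18. The list's median was -0.12 against 0.02 over all tested genes.

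All 26 mitosis and G2/M genes fell from D4H8 to D5 (median -1.19), 25 fell from D5 to D6 (median -1.41) and 26 fell from D4 to D6 (median -2.70), while none passed from D4 to D4H8 (median -0.10). Over all tested genes 10.5%, 15.1% and 31.0% were lower in the first 3 of these comparisons. With GSKJ4 at D4H8, 1 of the 26 passed, where 1.85% of all tested genes were lower. It was *Aurka*, a mitotic kinase, which fell by 0.99 ± 0.18. The list's median was -0.40 against 0.02 over all tested genes. *Mki67*, the proliferation marker, had 65.7 ± 1.03 FPKM (SD, n = 3) at D4, 66.8 ± 4.14 at D4H8, 25.7 ± 6.77 at D5 and 9.70 ± 3.96 at D6.

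Among 12 D cyclins, their kinases and CDK inhibitors, 7 fell and 4 rose from D4 to D6, where 31.0% of all tested genes were lower and 32.9% higher. *Cdkn1c*, the CDK inhibitor p57, was higher at D4H8 than at D4 (by 1.28 ± 0.17 on the log2 scale, adjusted p = 0.00049 by edgeR). No member passed the test in that step, though 40 of 45 had a log2 fold change below 0. The order of these changes in time was not tested. Mean *Cdkn1c* was 27.9 ± 7.03 FPKM (SD, n = 3) at D4, 69.2 ± 12.1 at D4H8, 173 ± 25.8 at D5 and 197 ± 11.6 at D6. *Ccnd1* and *Ccnd2*, D-type cyclins that open the G1/S transition, fell with GSKJ4 at D4H8 by 1.87 ± 0.18 and 2.08 ± 0.20 (adjusted p = 0.0027 for each by edgeR). *Ccnd2* had 82.2 ± 9.19 FPKM without and 19.9 ± 2.11 with GSKJ4, and its log2 fold change of -2.08 stands beside -1.24 for *Rrm2*. *Cdkn1a*, the inhibitor p21, rose there by 1.34 ± 0.28 (adjusted p = 0.038 by edgeR). Its mean was 15.7 ± 2.41 FPKM without and 41.2 ± 19.0 with GSKJ4. *Ccnd2* was the gene of this list whose GSKJ4 effect differed between D6 and D4H8 (1.68 ± 0.30, adjusted p = 0.012 by edgeR).

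Of 70 replication-dependent histone genes only 20 had enough counts to be tested across the untreated stages. Their mRNAs mostly lack the poly(A) tail that the libraries selected for. From D4 to D6, 9 of the 20 fell and 3 rose, where 31.0% of all tested genes were lower and 32.9% higher. With GSKJ4 at D4H8 none of 19 tested passed by edgeR. Their copies are near-identical, so single histone genes are not described.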

How the data were processed

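Poly(A) RNA was sequenced from 21 libraries in 7 groups of 3. The deposited table of counts per gene was made by the authors by trimming reads, aligning them to mm10 with HISAT2 and counting with HTSeq, tools that the submitters' processing notes also name. The strand setting of the counting is not given in the sources used here. The deposited FPKM values were made by the authors from the same counts, and FPKM recomputed from counts and gene length differed from them by at most 0.005. All columns were used, and groups came from the sample labels. Gene symbols were taken from GENCODE M21 on GRCm38, which named 55140 identifiers and left 260 without a symbol. Promoter windows were RefSeq's.

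Counts were tested with edgeR 4.0.16 (quasi-likelihood, TMM scaling, filterByExpr with a minimum count of 10) in R 4.3.3, with Benjamini-Hochberg adjustment over all tested genes and a threshold of 0.05. Stages were compared in 1 fit of the 12 untreated libraries, GSKJ4 in a fit of 6 libraries per stage, and the difference of its effect between stages in a fit of 18. Log2 fold changes carry the model's SE. FPKM was used for levels only. As alternatives, DESeq2 1.42.0 replaced edgeR, RLE or upper-quartile factors replaced TMM, the filter was dropped or raised to 10 counts in each library, the replicate number entered as a block, all 21 libraries shared 1 fit, and each library was left out. In simulated data for the D4H8 GSKJ4 comparison over 16048 genes, with 200 changed, edgeR recovered the known changes. Recovery of changes as small as those of the members there (median log2 fold change -0.36) was not tested. Recovery at the spread between the real libraries of this comparison was not tested either. Tables and figures used Python 3.11.15, pandas 2.3.3, numpy 2.4.6 and matplotlib 3.10.9.

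The members, roles and lists were chosen with earlier results of these data known. Every member is accounted for by counts and ranges within its role. Library values are given for 19 representatives, and for each comparison for members with the largest or smallest changes. *Rfc3*, *Rfc5*, *Mcm7* and members named outside these rules were chosen after their values were seen, as were the genes named from other lists. Results for 1 gene of these lists are not reported here. No duplicate library was found.

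Replicate numbers are shared across groups. The correlation of same-numbered untreated and treated libraries in their deviations from the group mean was 0.757, 0.431 and 0.574 at D6, 0.490, 0.0895 and 0.298 at D4H8, and 0.255, 0.0596 and 0.232 at D5, so every pair exceeded 0.1 at D6 only.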

Additional observations from a re-analysis of the deposited data

Results flagged for a closer look

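The values of *E2f2*, an activator E2F, with GSKJ4 lay on opposite sides of the untreated ones at D4H8 and D6. At D4H8 all 3 treated libraries were below all 3 untreated libraries, as in 24 of 45 members and 16.8% of all tested genes. At D6 all 3 treated libraries were above the untreated ones. The log2 fold change was -1.23 ± 0.28 (SE) at D4H8 and 0.32 ± 0.21 at D6, where edgeR gave an unadjusted p of 0.17 and an adjusted p of 1.00. *E2f2* was the 1 member of 45 placed so at D6, where 2.73% of all tested genes had all treated libraries above all untreated ones. The difference between these effects was 1.56 ± 0.37, the highest value of the 45 members. For it edgeR's quasi-likelihood test gave an adjusted p of 0.064 and an unadjusted p of 0.00057, so it did not pass the threshold. DESeq2 gave an adjusted p of 0.0045. The untreated D6 libraries held 62 to 66 reads of the gene and the treated ones 70 to 86.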

How the results depend on the processing

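No followed fold change reversed: of 1433 values under the alternatives for 77 fold changes of representative genes, 1364 kept their side of the threshold, 28 lost it and 41 gained it, and 97 fold changes that were not called and lay within 2 SE of 0 were not followed. The counts of members that were lower between stages moved by less than 1.5 times under every alternative. The cause of the other shifts was not tested. Members higher at D4H8 than at D4 were 0, against 2 by DESeq2, 1 without a filter, 1 with a replicate block and 0 to 1 with a library left out (1 without D6 replicate 1). Of all tested genes 711 were higher, against 997 by DESeq2, 1055 without a filter, 838 with the block and 810 without D6 replicate 1. Members lower with GSKJ4 at D4H8 were 4, against 10 by DESeq2, 7 without a filter, 7 with a replicate block, 7 in 1 fit of all 21 libraries and 0 to 12 with a library left out. Of all tested genes 301 were lower there, against 965 by DESeq2, 1058 without a filter and 1039 with the block. In 1 fit of all 21 libraries 990 were lower, and 41 to 748 with a library left out. Members whose GSKJ4 effect was higher at D5 than at D4H8 were 0, against 1 without a filter and 1 with a replicate block. Of all tested genes 42 were higher, against 245 without a filter and 229 with the block. Members whose GSKJ4 effect was higher at D6 than at D4H8 were 0, against 2 by DESeq2, 1 with upper-quartile scaling, 3 without a filter, 1 with at least 10 counts in every library, 5 with a replicate block, 1 in 1 fit of all 21 libraries and 0 to 1 with a library left out (1 without D4H8+GSKJ4 replicate 1 or D5+GSKJ4 replicate 2). Of all tested genes 100 were higher, against 298 by DESeq2, 120 with upper-quartile scaling, 414 without a filter and 520 with the block. At D4H8 and D5 the deviations of replicate 2 correlated by less than 0.1 between the untreated and treated libraries, and the replicate block called no member at D5 or D6. Of all tested genes the block called 4 higher and 0 lower at D5, and 48 higher and 209 lower at D6. With upper-quartile factors the median over all genes was -0.19 from D4 to D6 and -0.10 from D5 to D6. A fit with a library left out has 2 libraries in that group, so a call lost there says little about the size of a change. Values of low genes such as *E2f2* at D6 rest on under 100 reads in each library.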
